A study of Mus musculus with 29 samples.

Results

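The comparison described here is that of C2C12 myoblasts given a synthetic mimic of miR-145 with C2C12 myoblasts given the AllStar negative control oligonucleotide. C2C12 is a mouse myoblast line, grown here at passage 27 in rich medium with serum, so that the cells were proliferating and not induced to form myotubes. Both groups received 50 nM of Qiagen oligonucleotide with the HiPerFect lipid reagent, and RNA was taken after 36 h for hybridisation to Affymetrix gene arrays. The arrays were chosen by their titles. Of the 29 arrays of the series 9 were used, namely 3 of the miR-145 mimic and 6 of AllStar, which are 3 control transfections and a technical repeat of each. Each control was averaged with the repeat of its number, which left 3 values for miR-145 and 3 for the control. The series describes 3 independent experiments. Another 18 arrays held 6 other mimics (miR-365, miR-22, Let-7b, miR-1, miR-29a and miR-34a) at the same dose and time, and they are used below only to show where miR-145 differed. The model has limits: it is 1 cell line, the cells receive a large dose of a double-stranded RNA, and the level of mature miR-145 in the cells was not measured in the values used here.

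MicroRNAs are short RNAs that guide Argonaute proteins to matching sites, mostly in the 3' untranslated regions of messenger RNAs, and reduce the stability and translation of those messages. miR-145 is made together with miR-143 and is abundant in smooth muscle, where it is known as a regulator of the contractile state. It is also known for messages that encode regulators of the actin cytoskeleton, among them fascin (Fscn1). Cells also carry sensors of foreign double-stranded RNA (the Toll-like receptor Tlr3 and the helicases Ddx58, or RIG-I, and Ifih1, or MDA5). These sensors start the production of interferons, which switch on a large set of antiviral genes.

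Values are on the log2 scale of RMA, on which a difference of 1 is a doubling. Over all 29 arrays they ran between 2.35 and 14.65 with array medians of 7.24 to 7.39. Probe sets without a listed gene had a median of 6.67, and a level near or under it may be background. In all, 19938 genes were tested, each by 1 probe set. Across genes, each control correlated with the repeat of its number at an r of 0.998. Correlations did not clearly show which repeat belongs to which control, so repeats were matched by number alone. The miR-145 arrays of replicates 1 and 2 correlated at 0.997, while replicate 3 correlated at 0.991 with replicate 1 and at 0.992 with replicate 2. Replicate 3 of miR-145 stood apart from the other 2, above all in interferon-stimulated genes. For calls against the control, the text says which printed list counts and named genes change without replicate 3. In a fit that weighted arrays it had the lowest weight of all 24 values, 0.29. The number of arrays limits the precision of every value below. The 9 measured myoblast markers, which include Myod1, Myf5, Des and Cdh15, had a mean level of 10.97, 11.12 and 10.92 in the miR-145 samples, against 10.86, 11.07 and 10.89 in the controls. Leukocyte markers averaged 6.33 to 6.45 in the miR-145 samples and 6.34 to 6.40 in the controls, which is under the level of probe sets without a gene. Of the marker lists for myoblasts, leukocytes, endothelium, fat, bone and cartilage, and epithelium, 0 of 49 members passed limma's test after adjustment. At an unadjusted p under 0.05 there were 3 higher and 3 lower, where 2301 of all 19938 genes were higher and 1446 lower.

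Under miR-145, 1365 of 19938 genes (6.85%) differed from the control at a limma adjusted p under 0.05. Higher levels were found in 767 (3.85% of all genes) and lower levels in 598 (3.0%). A change of at least 1.5-fold was reached by 162 higher genes (0.813%) and 144 lower genes (0.722%). In 1349 of the called genes (6.77% of all genes) the 3 miR-145 values lay beyond all 3 control values in the direction of the change. That pattern was frequent without regard to the test, since 2955 genes (14.8%) had all 3 miR-145 values above the controls and 1752 (8.79%) had all 3 below. The median difference over all genes was 0.04. The count depended on single samples. Without miR-145 replicate 3 it was 727 genes (3.65%), of which 457 (2.29%) were higher and 270 (1.35%) lower. Shared with the full comparison were 407 increases and 265 decreases. Without control replicate 2 it was 824, and without control replicate 3 it was 756. These arrays are of whole cultures, so a change in every cell and a change in the share of cells with a high or low level cannot be told apart.

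The replicates differed in how far genes moved. Each replicate's differences from the control of its number correlated across genes with those of the next at an r of 0.43 between replicates 1 and 2, 0.54 between 1 and 3, and 0.47 between 2 and 3. Without the interferon list these were 0.41, 0.54 and 0.47. Each replicate was set against a different control here, but genes are not independent replicates. Replicate 3 was the furthest from the control: 160 genes (0.802%) were at least 2-fold above the control mean in it, against 20 (0.1%) in replicate 1 and 37 (0.186%) in replicate 2. In the other direction 106 genes (0.532%) were at least 2-fold below in replicate 3, 11 (0.0552%) in replicate 1 and 22 (0.11%) in replicate 2. Of the 598 genes called lower, 533 were furthest below the control mean in replicate 3. At least 4-fold above the control mean were 65 genes in replicate 3, 4 in replicate 1 and 2 in replicate 2. Of those 65 genes, 41 belong to the interferon-stimulated list. The plot of replicate 3 against the mean of replicates 1 and 2 shows this arm of the increases.

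**Figure D1:**
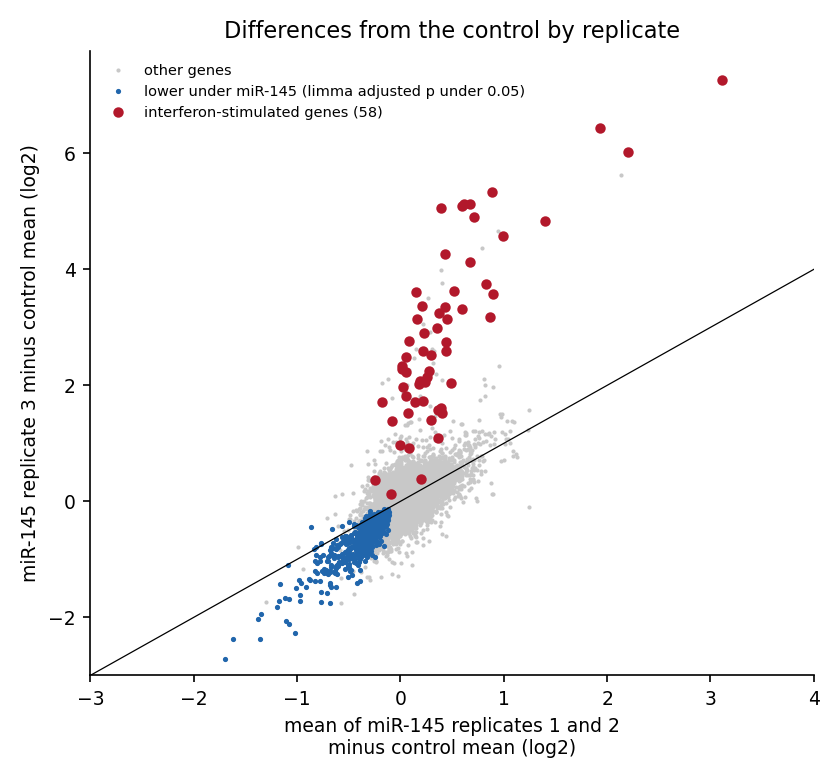
Each point is 1 of 19938 genes, placed by the mean difference of miR-145 replicates 1 and 2 from the control mean (x axis, log2) and by the difference of replicate 3 (y axis, log2). The line marks equal differences. The 58 interferon-stimulated genes (red) rise steeply above it, with a mean of 2.90 in replicate 3 against 0.48 and 0.41 in replicates 1 and 2, while genes called lower (blue) lie nearer to it.

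In each of the 3 replicates, 8 genes were at least 2-fold below the control mean (0.0401% of all genes) and 7 were at least 2-fold above it (0.0351%). These genes were picked out after their values were seen. The 8 lower ones were Gsta4, Slc40a1, Musk, Fscn1, Anapc15, Abhd17c, Mfsd14b and Gm5662. All of them except Gm5662 passed the test. Gm5662, a predicted gene, had values of 4.37 to 4.86 under miR-145 and 5.59 to 6.63 in the controls, all under the median of probe sets without a gene. Mfsd14b, which encodes a membrane protein of the major facilitator superfamily, had 8.89, 8.82 and 8.59 in the miR-145 samples, against 10.09, 9.90 and 10.08 in the controls. It fell by 1.25 ± 0.09 (SE, n = 3 each, limma adjusted p = 2.11e-08). Among the 7 higher genes 4 are interferon-stimulated (Ifit3, Ifit1, Usp18 and Rtp4), and Cxcl10 encodes a chemokine that interferons induce. The other 2 were Pappa and Acp1, and they did not share the jump of replicate 3. Pappa encodes a metalloprotease that cleaves IGF-binding proteins. It had 10.17, 10.03 and 10.44 under miR-145, against 8.87, 8.77 and 8.94 in the controls, and rose by 1.36 ± 0.15 (limma adjusted p = 4.24e-06). The other mimics had Pappa at 8.48 to 10.23 with a median of 9.73, which overlaps miR-145 and reaches above the controls. Acp1, a low molecular weight tyrosine phosphatase, had 10.88, 10.94 and 10.91 under miR-145, against 9.76, 9.76 and 9.50 in the controls. These values are from the brightest of the 5 probe sets of Acp1, and values of the others are not given here. With a difference of 1.24 ± 0.08 (limma adjusted p = 2.27e-09) Acp1 passed the test. The other 6 mimics, however, gave Acp1 values of 10.65 to 11.05, so for this gene the control samples stand below all the transfections with a mimic, and miR-145 differed from the mean of the other mimics by 0.07.

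The largest decreases under miR-145 were in enzymes of detoxification and iron handling, in a receptor of the neuromuscular junction and in fascin. Gsta4 encodes a glutathione transferase that conjugates products of lipid peroxidation. Its level was 10.38, 9.17 and 8.76 under miR-145, against 11.67, 11.44 and 11.31 in the controls. The groups did not overlap, replicate 1 was the least low, and the difference of −2.03 ± 0.31 had a limma adjusted p of 0.000166. Slc40a1, or ferroportin, is the exporter of iron from cells. It had 7.86, 8.08 and 7.21 under miR-145, against 9.44, 9.57 and 9.77 in the controls, and fell by 1.88 ± 0.17 (limma adjusted p = 2.53e-07). All 3 of its miR-145 values were more than a log2 unit below every control. Musk, the muscle-specific kinase that organises acetylcholine receptors at the synapse, had 9.54, 9.34 and 8.48 under miR-145, against 10.72, 10.58 and 10.36 in the controls (difference −1.43 ± 0.17, limma adjusted p = 8.72e-06). Here too replicate 3 was the lowest, and the 2 others were close together. Nqo1, a quinone reductase, had 10.25, 9.21 and 9.08 under miR-145, against 11.42, 10.89 and 11.03 in the controls, and fell by 1.60 ± 0.31.

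The remaining large decreases came from genes of mixed roles. Car8, a protein related to carbonic anhydrases, had 8.47, 7.44 and 6.93 under miR-145, against 9.63, 8.95 and 9.33 in the controls (difference −1.70). Prrg4, a transmembrane protein with a Gla domain, fell by 1.44, and the calcium-dependent membrane binder Anxa8 fell by 1.42. Anapc15, a subunit of the anaphase-promoting complex, fell by 1.36 on the probe set used and by 1.13 on the second probe set of that gene. Tnfrsf23, a decoy receptor for TRAIL, fell by 1.30, and the depalmitoylating enzyme Abhd17c fell by 1.28. All of these passed the test under every alternative processing tried and without any single sample. The exception among the 12 largest decreases was Prl2c5, a hormone of the prolactin family with close copies in the genome, which may share probes. Prl2c5 had 8.12, 6.87 and 6.90 under miR-145, against 9.30, 8.78 and 8.42 in the controls (−1.54 ± 0.41, limma adjusted p = 0.022). Without miR-145 replicate 3 its adjusted p was 0.119, and the call was lost as well without miR-145 replicate 2 and without control replicates 1 or 2.

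**Figure D2:**
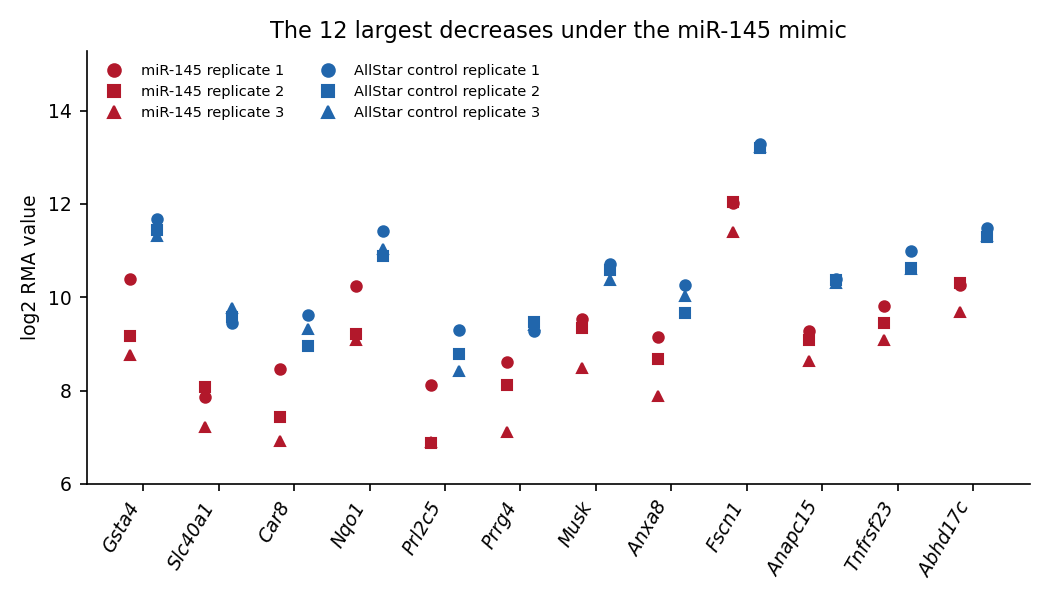
Values (log2 RMA, y axis) of the 12 genes with the largest decreases among those that passed, for the 3 miR-145 samples (red, left) and the 3 AllStar controls (blue, right); symbols give the replicate number. Fscn1 runs from 11.39 to 12.05 under miR-145 and from 13.19 to 13.28 in the controls, and in none of the 12 genes do the groups overlap.

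Genes described in earlier work as targets of miR-145, many of them in human cells, moved in part. This list and those below were chosen with earlier results of these data known, so their shares are descriptions and not independent tests. Of 63 measured members 15 (23.8%) were lower and 3 (4.76%) higher, against 3.0% and 3.85% of all genes. The median over the whole list was −0.03, near the 0.04 of all genes, since 45 members did not pass. Without miR-145 replicate 3, 10 were lower and 2 higher. Fscn1, the protein that bundles actin filaments in filopodia, stood out: it had 12.01, 12.05 and 11.39 under miR-145, against 13.28, 13.19 and 13.21 in the controls. It was 2.65-fold lower (−1.41 ± 0.10 on the log2 scale, limma adjusted p = 1.9e-08). All 18 samples of the other mimics had Fscn1 values of 12.83 to 13.34, above every miR-145 sample. Ssh2, a phosphatase that activates the actin-severing protein cofilin, had 8.53, 8.56 and 8.0 under miR-145, against 9.50, 9.30 and 9.32 in the controls (−1.01 ± 0.11, limma adjusted p = 2.28e-06). The second probe set of Ssh2, at a lower level, differed by −1.67.

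The other members that fell were smaller in size. Rtkn fell by 0.74, and Srgap1 and Srgap2, which act downstream of Slit and Robo, fell by 0.55 and 0.34. The cell cycle genes Cdk6 and E2f3 fell by 0.67 and 0.52. Cdk6, a kinase of the G1 phase, had 11.04, 11.05 and 10.99 under miR-145, against 11.67, 11.71 and 11.71 in the controls. Its 3 miR-145 values were almost equal and replicate 3 did not stand apart. Against the mean of the other mimics, however, Cdk6 was 0.26 higher under miR-145, since the other mimics had 10.16 to 11.26. The remaining decreases were in Adam17, a protease that sheds membrane ligands (0.49), Ppp3ca, the catalytic subunit of calcineurin (0.48), the GTPase Nras (0.47), the cytoskeletal linker Add3 (0.46), the BMP mediator Smad5 (0.44), Cbfb, partner of the Runx factors (0.42), Socs7 (0.31) and the transcription factor Sp1 (0.25). The calls of Nras, Add3, Smad5, Socs7 and Sp1 were lost without miR-145 replicate 3.

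Several of the best known targets were not lower by the test. Klf4 and Klf5 are transcription factors named as miR-145 targets in smooth muscle and stem cells. Klf4 was higher under miR-145, with 9.86, 9.79 and 9.68 against 9.33, 9.38 and 9.12 in the controls (0.50 ± 0.11, limma adjusted p = 0.00799, not called without control replicate 3). Klf5 had 11.42, 11.12 and 11.14 under miR-145 and 11.63, 11.30 and 11.14 in the controls, which overlap (−0.13, limma adjusted p = 0.635). Irs1, the insulin receptor substrate, differed by 0.23 and the receptor Igf1r by 0.26 (limma adjusted p = 0.567 and 0.0617). Myc differed by −0.01, Smad3 by 0.17, Egfr by 0.13 and Tgfbr2 by −0.09, all with limma adjusted p above the threshold. Sox2 and Pou5f1 were measured at 4.99 to 6.27 in all 6 samples, under the median of probe sets without a gene. The other 2 members that rose were Cdh2, or N-cadherin (0.47), and Parp8 (0.34, not called without miR-145 replicate 3). A microRNA can also act on translation, which these arrays do not measure.

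Regulators of the actin cytoskeleton fell more often than they rose: of 62 measured, 10 (16.1%) were lower and 4 (6.45%) higher, against 3.0% and 3.85% of all genes. The median of the list was −0.02. The list shares 7 members with the target list, and 5 of the 10 lower genes (Fscn1, Ssh2, Srgap1, Add3 and Srgap2) are in both. Limk1 is the kinase that inactivates cofilin and so opposes Ssh2. It had 9.13, 9.01 and 8.58 under miR-145, against 9.74, 9.78 and 9.90 in the controls (−0.90 ± 0.13, limma adjusted p = 8.21e-05). The branching regulator Wasf2 had 11.46, 11.41 and 10.88 under miR-145, against 11.95, 11.86 and 11.80 in the controls. Its difference of −0.62 passed, but not without replicate 3 (limma adjusted p = 0.0532). Smaller decreases were those of the kinase Pak2 (0.37), the pointed-end capper Tmod3 (0.37) and Arpc1b of the Arp2/3 complex (0.18). The GTPase Rhob rose most, with 10.75, 10.52 and 10.34 under miR-145, against 9.79, 9.45 and 9.40 in the controls (0.99 ± 0.12, limma adjusted p = 1.39e-05). Its replicate 3 was the nearest of the 3 to the controls. Actn1, Arpc5 and Diaph2 rose by 0.29, 0.29 and 0.37. Without miR-145 replicate 3 the list held 6 lower and 2 higher genes, with Tmod3, Arpc1b, Add3, Arpc5 and Diaph2 lost besides Wasf2.

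Genes of the smooth muscle contractile apparatus were higher. Of 25 measured, 9 (36.0%) rose and 0 fell, against 3.85% and 3.0% of all genes, and the list median was 0.20. In this list replicate 3 did not stand apart, with a list mean 0.28 above the control mean, against 0.19 in replicate 1 and 0.25 in replicate 2. In 17 members all 3 miR-145 values lay above all 3 controls, a pattern that 14.8% of all genes showed. Lmod1, which nucleates actin filaments in smooth muscle, had 8.47, 8.89 and 9.03 under miR-145, against 7.98, 7.77 and 7.83 in the controls (0.94 ± 0.14, limma adjusted p = 0.000148). It was 1.92-fold higher, the largest difference of the list. Aoc3, an amine oxidase of smooth muscle and fat cells, had 7.16, 7.34 and 7.44 under miR-145, against 6.66, 6.52 and 6.54 in the controls (0.74 ± 0.10). Calponin, Cnn1, had 12.78, 12.86 and 13.09 under miR-145, against 12.45, 12.37 and 12.52 in the controls (0.46 ± 0.12, limma adjusted p = 0.0188). These groups did not overlap, though the call of Cnn1 was lost without miR-145 replicate 3 and without control replicates 1 or 2.

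The other members that passed were the myosin light chain Myl9 (0.36), smoothelin Smtn (0.35), the kinase Dmpk (0.32), Pdlim5 (0.30), the enteric actin Actg2 (0.29) and tropomyosin Tpm2 (0.28). Tagln, or SM22, had 12.63, 12.90 and 13.10 under miR-145, against 12.38, 12.39 and 12.52 in the controls. All 3 values were above the controls, but its difference of 0.45 did not pass (limma adjusted p = 0.0721). Myocd, the coactivator that drives this programme, differed by 0.36 at levels of 6.51 to 7.03 under miR-145 and 6.35 to 6.44 in the controls (limma adjusted p = 0.0698). Acta2, smooth muscle actin, was near the top of the scale in all 6 samples, 13.98 to 13.99 under miR-145 and 13.91 in each control. Without miR-145 replicate 3, 4 members passed, namely Lmod1, Aoc3, Tpm2 and Dmpk. Against the mean of the other mimics 16 of the 25 were higher and 0 lower, where 10.3% and 8.59% of all genes were. The list mean was 10.78, 10.84 and 10.87 under miR-145, and those of the miR-29a mimic came nearest, with 10.76, 10.74 and 10.71. The controls had 10.65, 10.56 and 10.56, and the single array of untransfected myoblasts had 10.97, above every miR-145 sample.

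Because Gsta4 and Nqo1 led the decreases, a list of 30 measured genes of the xenobiotic and antioxidant response was drawn up after their values were seen, and its count is a description only. In it 12 genes were lower and 0 higher, where 3.0% and 3.85% of all genes were, and the median was −0.30. Nfe2l2 encodes Nrf2, the transcription factor that drives antioxidant genes. It had 11.26, 11.19 and 10.73 under miR-145, against 11.86, 11.79 and 11.72 in the controls, and fell by 0.73 ± 0.09 (limma adjusted p = 3.14e-05). Ahr, the receptor that senses aromatic xenobiotics, had 9.87, 9.60 and 9.10 under miR-145, against 10.92, 10.48 and 10.72 in the controls (−1.18 ± 0.15, limma adjusted p = 1.86e-05). Both calls held without replicate 3 and under every alternative. Nfe2l2 was at 11.71 to 12.25 in the 18 samples of the other mimics, above every miR-145 sample, whereas Ahr was at 9.83 to 10.93 there and so overlapped. Srxn1, which repairs oxidised peroxiredoxins, fell by 0.70, and Gclm, a subunit of the enzyme that begins glutathione synthesis, fell by 0.52. Neither of them passed without miR-145 replicate 3. The abundant ferritin chains Fth1 and Ftl1 fell by 0.28 and 0.15, and the call of Ftl1 was lost without replicate 3. The list mean was 10.49, 10.27 and 10.15 under miR-145, against 10.81, 10.69 and 10.67 in the controls and 10.59 to 11.29 in the other mimics. Without replicate 3, 6 members were lower and 1 higher, where 1.35% of all genes were lower and 2.29% higher.

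**Figure D3:**
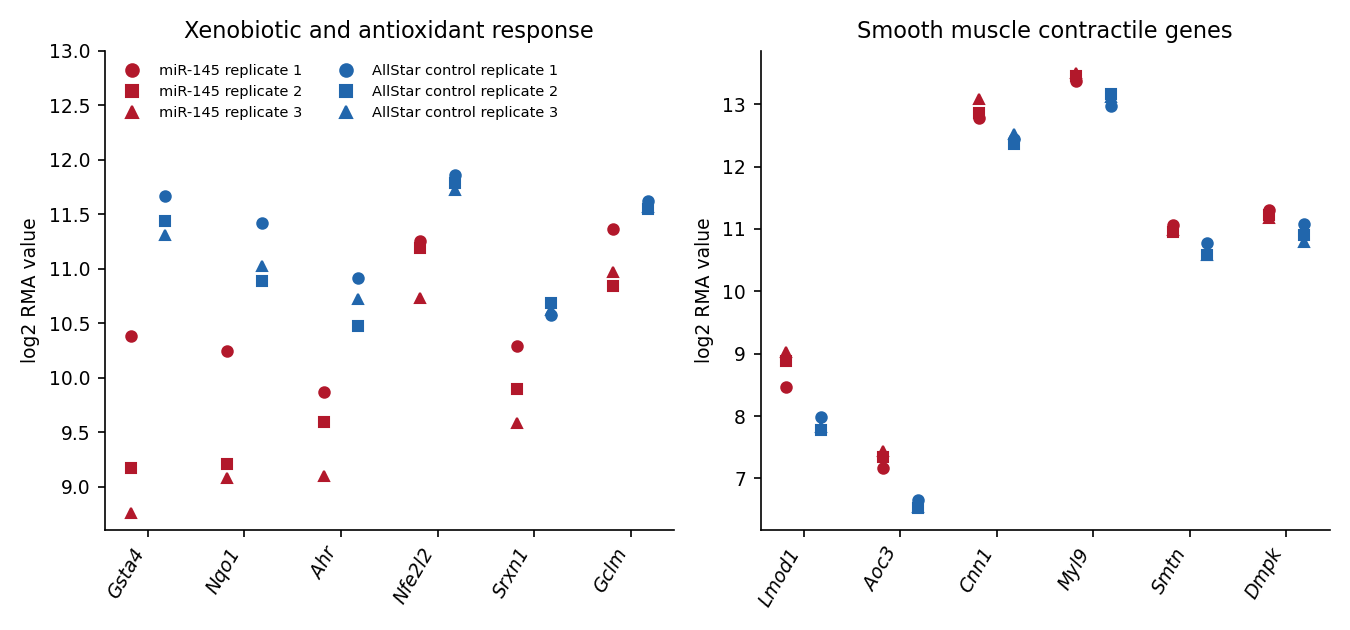
Values (log2 RMA, y axes) of 6 genes of the xenobiotic and antioxidant response (left) and 6 smooth muscle contractile genes (right) in the miR-145 samples (red) and AllStar controls (blue); symbols give the replicate. In every gene shown the 3 miR-145 values lie on 1 side of the 3 controls, below on the left and above on the right, as in Lmod1 with 8.47 to 9.03 against 7.77 to 7.98.

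The largest increases were in interferon-stimulated genes. The promoters of these genes are known to hold interferon-stimulated response elements. The promoters of Ifit3, Ifit1, Cxcl10 and Gbp7 are printed because these genes were among the 12 largest increases and show the element in different places. They come from RefSeq on GRCm38.p6 and span 300 bases on the gene's strand, most of them before the start of the gene. Capitals mark the core of the element, GAAA, any 2 bases and GAAA, which reads TTTC, any 2 bases and TTTC where it lies on the other strand. Ifit3 lies at chr19:34583279-34583578 on the plus strand and Ifit1 at chr19:34640639-34640938 on the plus strand. The Cxcl10 window is chr5:92348840-92349139 on the minus strand and that of Gbp7 is chr3:142530086-142530385 on the plus strand.
Ifit3: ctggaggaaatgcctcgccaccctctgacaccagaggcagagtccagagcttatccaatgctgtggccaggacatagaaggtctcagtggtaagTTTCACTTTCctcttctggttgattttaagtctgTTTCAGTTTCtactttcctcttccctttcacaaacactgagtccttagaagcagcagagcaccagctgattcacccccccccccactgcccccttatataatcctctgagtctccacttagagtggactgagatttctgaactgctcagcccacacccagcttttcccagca
Ifit1: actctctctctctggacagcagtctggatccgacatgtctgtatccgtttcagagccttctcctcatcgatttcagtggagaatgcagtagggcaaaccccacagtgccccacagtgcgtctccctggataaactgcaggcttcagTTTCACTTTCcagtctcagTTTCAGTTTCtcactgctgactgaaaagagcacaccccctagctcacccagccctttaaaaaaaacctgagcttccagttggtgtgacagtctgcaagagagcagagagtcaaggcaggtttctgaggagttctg
Cxcl10: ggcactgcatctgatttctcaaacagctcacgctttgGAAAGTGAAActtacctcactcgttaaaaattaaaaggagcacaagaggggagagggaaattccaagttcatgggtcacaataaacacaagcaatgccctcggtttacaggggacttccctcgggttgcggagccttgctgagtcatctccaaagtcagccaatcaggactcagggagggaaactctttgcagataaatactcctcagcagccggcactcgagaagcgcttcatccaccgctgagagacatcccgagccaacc
Gbp7: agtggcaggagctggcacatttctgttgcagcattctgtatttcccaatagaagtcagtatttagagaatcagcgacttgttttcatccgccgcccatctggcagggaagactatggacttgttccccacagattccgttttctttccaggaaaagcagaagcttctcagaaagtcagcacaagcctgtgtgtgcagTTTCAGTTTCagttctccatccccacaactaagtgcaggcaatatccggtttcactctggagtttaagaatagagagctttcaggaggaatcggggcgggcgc
Ifit3 and Ifit1 each held 2 copies, Cxcl10 and Gbp7 1 each. On either strand the letters were found in 1131 of 32851 promoter windows (3.44%) and in 607 of the 15614 measured genes with a window (3.89%). They were in 21 of the 42 interferon-stimulated genes with a window (50.0%) and in 1 of 45 targets of the miR-145 list (2.22%). Irf7, also among the largest increases, has none in this window. A match is a description of letters and not a measured binding site.

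Of 58 measured interferon-stimulated genes 22 (37.9%) were higher under miR-145 and 0 lower, against 3.85% and 3.0% of all genes, and the list median was 1.02. The mean level of the list was 7.73, 7.65 and 10.14 in miR-145 replicates 1, 2 and 3, against 7.19, 7.28 and 7.25 in the controls. Replicate 3 was thus far above the rest, and the other 2 were above all controls as well. The 18 samples of the other mimics had list means of 7.08 to 7.45, also below all 3 miR-145 samples. All 58 genes were highest in replicate 3. In replicate 3, 53 of the 58 were at least 2-fold above the control mean, against 6 in replicate 1 and 6 in replicate 2. Above the control mean by any amount were 51 genes in replicate 1, 50 in replicate 2 and 58 in replicate 3. Without replicate 3, 20 members passed, 16 of them among the 22, and the list median was 0.33. The controls of 24 members lay under the median of probe sets without a gene, and there the true fold may be larger than the one measured. What set replicate 3 apart was not tested.

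**Figure D4:**
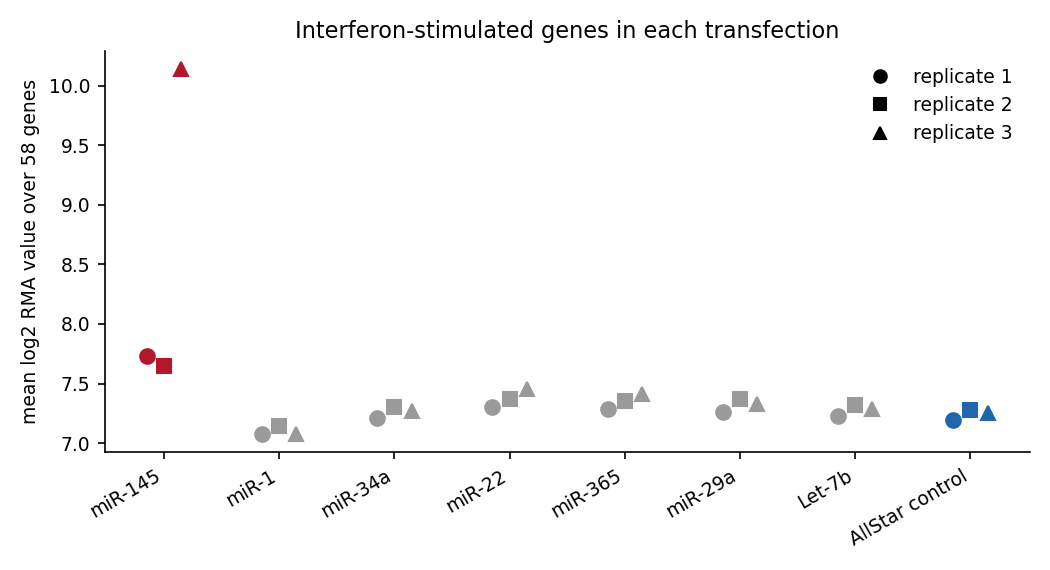
Mean level (log2 RMA, y axis) of the 58 interferon-stimulated genes in each of 24 values, for miR-145 (red), the other 6 mimics (grey) and the AllStar control (blue); symbols give the replicate. miR-145 replicate 3 is at 10.14 and replicates 1 and 2 are at 7.73 and 7.65, all above the range of 7.08 to 7.45 of the other mimics and 7.19 to 7.28 of the controls.

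The Ifit genes encode proteins that bind viral RNA and block its translation. Ifit3 had 8.53, 8.33 and 12.59 under miR-145, against 5.16, 5.37 and 5.43 in the controls, with a difference of 4.50 ± 0.61 (limma adjusted p = 5.33e-05). It was clearly up in each replicate, and without replicate 3 its difference was 3.11 (limma adjusted p = 2.48e-10). Ifit1 had 9.27, 8.98 and 12.94 under miR-145, against 6.83, 6.99 and 6.94 in the controls (3.48 ± 0.58, and 2.21 without replicate 3). The highest Ifit1 value among the 18 samples of the other mimics was 8.16, below all 3 miR-145 samples. Usp18, which removes ISG15 and limits interferon signalling, had 8.78, 8.12 and 12.95 under miR-145, against 6.40, 6.61 and 6.57 in the controls (3.43 ± 0.65, and 1.93 without replicate 3). Cxcl10, a chemokine for T cells, had 9.97, 8.50 and 12.72 under miR-145, against 7.18, 7.32 and 6.80 in the controls (3.30 ± 0.54, limma adjusted p = 0.000419). Replicate 2 was the lowest of the 3 in both genes, yet above every control. Rtp4 had 7.61, 7.58 and 11.03 under miR-145, against 6.22, 6.24 and 6.14 in the controls, and rose by 2.54 ± 0.49. In it replicates 1 and 2 were nearly equal, and the difference without replicate 3 was 1.40 (limma adjusted p = 4.09e-10).

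In the rest of the 12 largest increases replicates 1 and 2 moved by about a log2 unit or less. Gbp7, a guanylate-binding protein, had 7.70, 7.77 and 11.31 under miR-145, against 6.70, 6.72 and 6.80 in the controls (2.19 ± 0.51, and 0.99 without replicate 3). Rsad2, or viperin, had 7.05, 6.60 and 11.28 under miR-145, against 6.06, 6.21 and 6.19 in the controls (2.16 ± 0.64, limma adjusted p = 0.0429). The large standard errors come with values of replicate 3 that lay several log2 units above the other 2. limma drew these errors from a spread shared by all 8 groups, so they do not give the spread of the miR-145 values. The miR-145 values had a standard deviation of 2.4 in Ifit3 and 2.62 in Usp18, against 0.14 and 0.11 in the controls. Ifit3b, a close copy of Ifit3 that may share its probes, rose by 2.37, and the GTPases Iigp1 and Gbp3 rose by 2.11 and 1.83. BC023105 rose by 1.98. With only miR-145 and the control in the fit, the other mimics no longer entered the estimate of the spread. In that fit all of the 12 largest increases except Ifit3 lost their call. Ifit3b, Rsad2, Iigp1, BC023105 and Gbp3 also lost it without any 1 of the 3 control replicates. All 12 passed without miR-145 replicate 3. Some genes that did not pass were several log2 units higher in replicate 3 than in the other 2. Cmpk2 had 6.10, 5.96 and 10.54 under miR-145, against 5.32, 5.54 and 5.38 in the controls, and passed only once replicate 3 was left out (0.62, limma adjusted p = 0.0134). Ifi205 had 5.05, 5.15 and 9.77 under miR-145, against 4.77, 4.65 and 4.72 in the controls.

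Of 31 genes of RNA sensing and interferon signalling 6 (19.4%) rose and 0 fell, against 3.85% and 3.0% of all genes, with a list median of 0.19. The list shares 3 members with the interferon-stimulated list, and 1 of them, Ddx58, passed and is counted in both. Irf7, the factor that amplifies interferon production, had 7.74, 7.34 and 11.27 under miR-145, against 6.64, 6.67 and 6.50 in the controls (2.18 ± 0.54, limma adjusted p = 0.0148). Irf9, the DNA-binding part of the interferon-activated complex, had 8.71, 8.66 and 10.07 under miR-145, against 8.02, 7.53 and 7.63 in the controls (1.42 ± 0.22, and 0.96 without replicate 3). All 3 values of each gene lay above the controls. The sensor Ddx58 rose by 1.16, Stat2 by 1.00, the RNA editing enzyme Adar by 0.66 and the adaptor Myd88 by 0.46. Without replicate 3 the calls of Ddx58, Adar and Myd88 were lost, and 3 genes of the list passed. The sensor Ifih1 had 7.34, 7.51 and 10.34 under miR-145, against 6.91, 7.03 and 7.02 in the controls, and did not pass (limma adjusted p = 0.0519). Nor did Tlr3, with 7.09, 6.86 and 9.61 under miR-145, against 6.70, 6.72 and 6.66 in the controls (limma adjusted p = 0.0765). Ifnb1, the gene of interferon beta, had 5.46, 5.46 and 6.14 under miR-145, against 5.19, 5.52 and 5.34 in the controls (0.33, limma adjusted p = 0.238), all under the median of probe sets without a gene. Ifna4 had 5.99, 5.80 and 7.17 under miR-145, against 5.70, 5.82 and 5.89 in the controls.

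Antigen presentation genes were higher in replicate 3 than in the other samples, by description. Of 17 measured 0 passed limma's test in either direction after adjustment, and at an unadjusted p under 0.05 there were 6 higher and 0 lower. At that unadjusted threshold 2301 of all 19938 genes were higher and 1446 lower. The list mean was 9.43, 9.44 and 10.12 under miR-145, against 9.28, 9.46 and 9.45 in the controls. Tap1, which carries peptides into the endoplasmic reticulum, had 7.37, 7.18 and 9.39 under miR-145, against 7.11, 7.29 and 7.20 in the controls. The immunoproteasome subunit Psmb8 had 6.55, 6.51 and 8.15 under miR-145, against 6.18, 6.40 and 6.44 in the controls. In both genes replicates 1 and 2 lay in or near the range of the controls. Of 31 chemokine and cytokine genes 1 rose, Cxcl10, and 1 fell, the NF-kappaB subunit gene Nfkb2 (−0.43 ± 0.08, limma adjusted p = 0.00154). Each is 3.23% of the list, near the 3.85% and 3.0% of all genes. Cxcl9 had 7.23, 7.07 and 10.75 under miR-145, against 6.72, 6.77 and 6.79 in the controls, while Ccl5 had 7.69, 7.44 and 9.44, against 7.67, 7.75 and 7.53.

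**Figure D5:**
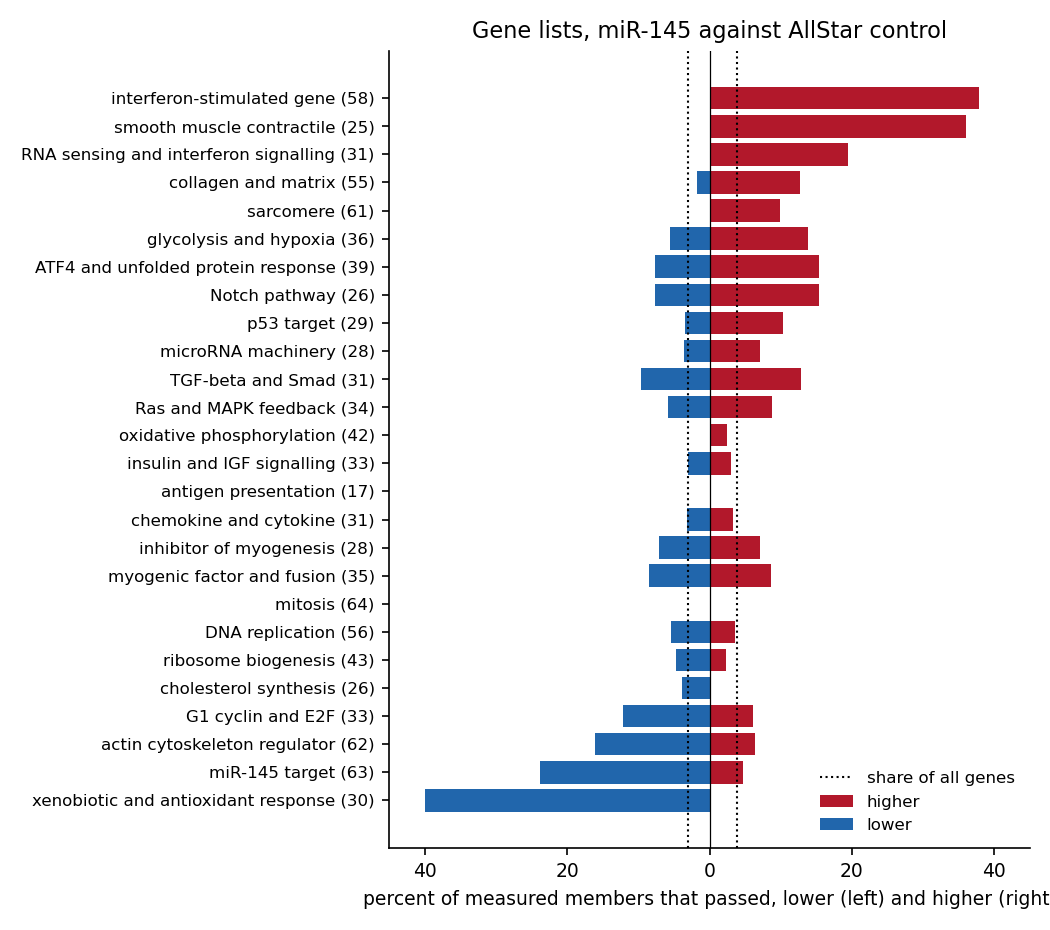
Share of the measured members of each gene list (number in brackets) that passed at a limma adjusted p under 0.05, lower to the left and higher to the right (percent, x axis), with dotted lines at the share of all genes, 3.0% and 3.85%. Interferon-stimulated genes (37.9% higher) and smooth muscle genes (36.0% higher) are at the top and the miR-145 target list (23.8% lower) near the bottom. The xenobiotic and antioxidant list was drawn up after its leading genes were seen. The other lists were chosen with earlier results of these data known.

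Replication and mitosis genes had list medians of −0.12 and −0.07 against the control, where all genes had 0.04. Of 56 DNA replication genes 2 (3.57%) were higher and 3 (5.36%) lower, near the 3.85% and 3.0% of all genes. The higher ones were Rfc5 and Mcm8, and the lower ones were Uhrf1, Pold3 and Pcna. Only Mcm8 passed without miR-145 replicate 3, and 0 were lower by limma. Of 64 mitosis genes 0 passed limma's test after adjustment and 4, all lower, had an unadjusted p under 0.05. At that unadjusted threshold 10 replication genes were lower and 2 higher, where 1446 of all 19938 genes were lower and 2301 higher. All 3 miR-145 values lay below all 3 controls in 15 replication genes and 20 mitosis genes. They lay above all 3 in 3 genes of each list. Of all genes 8.79% lay below in this way and 14.8% above. The mean of the mitosis list was 10.56, 10.58 and 10.45 under miR-145, against 10.60, 10.61 and 10.62 in the controls. In the G1 and E2F list of 33 genes, Cdk6, E2f5 (0.57), E2f3 and Cdk4 (0.14) fell, while Rb1, the retinoblastoma gene, rose by 0.52 and Tfdp2 by 0.33. These are 12.1% lower and 6.06% higher, against 3.0% and 3.85% of all genes. The call of Cdk4 was lost without replicate 3. Compared with the mean of the other mimics, 39 of the 56 replication genes and 43 of the 64 mitosis genes were higher under miR-145 and 0 lower, where 10.3% and 8.59% of all genes were. The mean of the replication list was 9.97 to 10.16 under miR-145 and 8.93 to 10.12 in the samples of the other mimics.

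Muscle genes moved a little and unevenly. Of 61 sarcomere genes 6 (9.84%) rose and 0 fell, against 3.85% and 3.0% of all genes. Titin, Ttn, had 9.91, 10.38 and 10.18 under miR-145, against 8.82, 9.37 and 9.11 in the controls (1.06 ± 0.23, limma adjusted p = 0.00474). The muscle creatine kinase Ckm had 10.11, 11.09 and 11.02 under miR-145, against 9.87, 9.92 and 9.64 in the controls (0.93 ± 0.20). In Ckm replicate 1 was near the controls, and so was the list as a whole, with a mean of −0.08 in replicate 1 against 0.33 and 0.32 in replicates 2 and 3. Ldb3 rose by 0.75, nebulin Neb by 0.73, the calcium pump Atp2a1 by 0.68 and Cryab by 0.29. The groups overlapped in Atp2a1. The calls of Neb (limma adjusted p = 0.0725) and Atp2a1 (0.166) were lost without miR-145 replicate 3, and 4 members passed. The list mean was 8.98, 9.39 and 9.38 under miR-145. The other mimics had a median of 9.39 and reached 9.87, and the single arrays of untransfected myoblasts and myotubes had 10.44 and 11.51. Against the mean of the other mimics 4 members were higher and 5 lower. Of 35 myogenic and fusion genes 3 rose (Dysf, Cdh2 and Jam3) and 3 fell (Musk, Myof and Jam2). Each count is 8.57% of the list, against 3.85% and 3.0% of all genes. Myogenin, Myog, had 10.02, 10.86 and 9.99 under miR-145, against 9.81, 10.05 and 9.43 in the controls, which overlap. Among 28 inhibitors of myogenesis Hey2 (0.78) and Twist1 (0.36) rose, and Bhlhe41 (0.54) and Id2 (0.47) fell, which is 7.14% each way. The calls of Dysf, Jam2 and Bhlhe41 were lost without replicate 3.

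Signalling lists held a few genes that passed. Akt1, the kinase downstream of insulin and growth factor receptors, had 12.11, 11.96 and 11.67 under miR-145, against 12.56, 12.63 and 12.66 in the controls (−0.70 ± 0.07, limma adjusted p = 1.22e-06). It was below every control in each replicate, and the only other of the 33 genes of that list to pass was Pik3cd, which rose by 0.37. Each is 3.03% of that list, near the 3.0% of all genes lower and 3.85% higher. In the Notch list of 26 genes the ligand Dll1 had 9.09, 9.32 and 8.85 under miR-145, against 7.98, 8.37 and 7.90 in the controls (1.00 ± 0.22, limma adjusted p = 0.00513). Hey2, a Notch target, rose with it in all 3 replicates, as did Maml2 and Psen2, while Adam17 and Jag2 fell. The risers are 15.4% of the Notch list and those that fell 7.69%, against 3.85% and 3.0% of all genes. The other Hes and Hey genes of the list did not pass, with differences of 0.05 in Hes1, 0.07 in Hey1, −0.06 in Hes6 and −0.36 in Heyl. Of 31 TGF-beta genes 4 rose, among them the activin antagonist Fst (0.81) and Bmp4 (0.65), and 3 fell, among them the BMP receptor Bmpr1a (0.33). These are 12.9% and 9.68% of the list, against 3.85% and 3.0% of all genes, and without miR-145 replicate 3 there were 2 of each. The RAF kinase Braf fell by 0.46. Of 55 collagen and matrix genes 7 rose, led by Col8a1 (0.75) and the elastic fibre protein Fbln5 (0.60), and 1 fell, the crosslinking enzyme Lox. These are 12.7% and 1.82% of the list, against the same shares of all genes. Without replicate 3 the calls of Col8a1 (limma adjusted p = 0.061), the laminin chain Lamb1 (0.0629) and Lox (0.0573) were lost, which left 5 higher and 0 lower. The calls of Pik3cd, Psen2 and Jag2 were lost as well.

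Metabolic and stress lists also held genes that passed. Egln3, the oxygen-sensing hydroxylase that marks HIF for destruction, had 10.88, 10.77 and 10.09 under miR-145, against 11.80, 11.76 and 11.83 in the controls (−1.21 ± 0.15, limma adjusted p = 2.35e-05). Of the 36 genes in its list of glycolysis and hypoxia 5 (13.9%) rose and 2 (5.56%) fell, against 3.85% and 3.0% of all genes. Among those that rose were Ankrd37 (0.55) and Ndrg1 (0.49), which are known as targets of HIF. A change in HIF activity was not tested. Bop1, a factor of ribosome assembly, had 11.05, 11.02 and 10.52 under miR-145, against 11.61, 11.75 and 11.79 in the controls (−0.86 ± 0.10, limma adjusted p = 6.45e-06). Dhcr7, the last enzyme of cholesterol synthesis, fell by 0.72 as the only 1 of 26 genes of that list (3.85%, against 3.0% of all genes). The p53 targets Apaf1, Btg2 and Zmat3 rose and Ccng1 fell by 0.50. These are 10.3% and 3.45% of 29 genes, against 3.85% and 3.0% of all genes. Of 39 genes of the unfolded protein and ATF4 response 6 (15.4%) rose, among them Herpud1 (0.42) and Psph (0.40). In that list 3 (7.69%) fell, among them the chaperone Dnajb9 (0.63). In the microRNA machinery Ago3, an Argonaute protein, fell by 0.53, and Xrn1 and Tnrc6a rose by 0.49 and 0.32. These are 3.57% lower and 7.14% higher of 28 genes, against 3.0% and 3.85% of all genes. Of 42 oxidative phosphorylation genes 1 (2.38%) rose, Sdhd (0.25), and 0 fell, against 3.85% and 3.0% of all genes. Without replicate 3 the calls of Ndrg1, Btg2 and Sdhd were lost. The glycolysis and hypoxia list then held 2 higher and 1 lower. The unfolded protein and ATF4 list held 3 higher and 1 lower, and the p53 list 2 higher and 1 lower.

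Against the mean of the other 6 mimics, 3758 genes (18.8%) differed under miR-145, with 2045 higher (10.3%) and 1713 lower (8.59%). These mimics have effects of their own, and they share the transfection and the dose with miR-145. In both comparisons 463 genes (2.32%) were higher and 462 (2.32%) lower, and the miR-145 samples enter both. The 8 largest decreases among them, ranked by the difference from the other mimics, were Car8 (−2.25), Prl2c5 (−2.15), Gsta4 (−2.05), Anxa8 (−1.73), Slc40a1 (−1.71), Lgr6 (−1.66), Musk (−1.65) and Nqo1 (−1.65). Lgr6, a receptor for R-spondins, had 7.95, 7.80 and 7.63 under miR-145, against 9.20, 8.43 and 8.33 in the controls (−0.86 ± 0.22), and 8.49 to 10.84 in the other mimics. Its difference from the control did not pass without replicate 3. The 8 largest increases were Ifit3, Usp18, Cxcl10, Ifit1, Ifit3b, Rtp4, Rsad2 and Irf7, with differences of 4.47 for Ifit3 and 2.11 for Irf7. Of the 58 interferon-stimulated genes 49 were higher and 0 lower than in the other mimics. Of the 63 targets 18 were lower and 7 higher, and Tgfbr2, which did not differ from the control by the test, was 0.66 below the other mimics. Of the 30 xenobiotic and antioxidant genes 20 were lower and 0 higher.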

How the data were processed

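Arrays were Affymetrix gene arrays of Trizol RNA. The deposited log2 values were made by the authors with RMA in Affymetrix Expression Console 1.1, per the submitters' processing notes; a genome build is not given in the sources used here. RMA corrects background and equalises the arrays' distributions, so changes are relative to the average gene. Of 35556 probe sets, 21789 with 1 symbol were kept and reduced to the brightest for each of 19938 genes. In limma 3.58.1 (R 4.3.3), lmFit was run on 24 values in 8 groups (7 mimics and the control), then eBayes with a variance trend. Tests were 2-sided, with Benjamini-Hochberg adjustment over all genes and a threshold of 0.05. The code was tested on simulated data. Replicate numbers were not taken as pairs. Residuals of equally numbered miR-145 and control samples correlated at 0.36, −0.04 and 0.22, which does not settle whether equal numbers are pairs.

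Members and lists were chosen with earlier results of these data known. Named are the 12 largest decreases and increases among genes that passed with groups that do not overlap, up to 6 members of each list with the largest changes among those that passed, the 8 largest differences from the other mimics in each direction, any gene of the target list, and, without a test, the highest single values of the interferon, RNA sensing, antigen and chemokine lists. Members beyond these were named where a count was small or after their values were seen. Of 1139 names in 32 lists, 1065 were measured. Alternatives changed the samples in the fit, the replicate block, technical repeats, dim genes, normalization, probe sets, the trend and array weights.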

Additional observations from a re-analysis of the deposited data

Results flagged for a closer look

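Of 13767 probe sets with several listed genes or none, which the comparisons above do not use, 73 were higher under miR-145 than in the control at a limma adjusted p under 0.05, and in all 73 the 3 miR-145 values lay above the 3 control values. Another 188 were lower, and 1.9% of these probe sets passed in all.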

How the results depend on the processing

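The 1365 genes called under miR-145 became 654 with only miR-145 and the control in the fit, 2444 with the replicate number as a block and 2474 with array weights. Leaving out 1 sample gave 727 to 1410, with the lowest count without miR-145 replicate 3, and leaving out the technical repeats gave 1563. Fewer samples enter the fit of 2 groups and those without 1 sample, and other causes were not tested. With array weights 67.3% of the calls were higher, against 56.2%, and without miR-145 replicate 1 it was 47.8%. Whether equal numbers of miR-145 and control mark the same experiment is not stated in the labels. Of these samples 4 of 6 correlated best with their own number in the other group. The 3758 genes that differed from the other mimics became 2090 to 3737 when 1 sample was left out, and 2090 without miR-145 replicate 3. The fit of 2 groups gives no value for that comparison. Of 129 genes that the rule for naming gave and that passed, not all of which are printed, 51 did so under all 15 alternatives and 0 changed direction. Calls were lost by 56 in the fit of 2 groups, 45 without miR-145 replicate 3, 46 without control replicate 2 and 49 without control replicate 3. Signal near that of probe sets without a gene limits Ifnb1, Sox2 and the controls of 24 interferon-stimulated genes.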
